A study of Mus musculus with 36 samples.

Results

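The genes described here are 35 DNA replication and S-phase genes, chosen by name among the 38942 genes of one deposited expression table. They fall into 8 roles: origin licensing (8 genes), helicase activation (5), primase and polymerases (4), the sliding clamp and its loader (5), single-strand and lagging-strand proteins (3), deoxynucleotide supply (4), chromatin assembly (2) and regulators of entry into S phase (4). All 35 passed the filter on low values, which kept 38873 of the 38942 genes. The backgrounds below are the percent of these tested genes that were called, and they include genes with few reads. RNA was sequenced from mouse bone marrow monocytes sorted by Ly6C, a surface protein that separates monocyte subsets. The 12 groups are the combinations of genotype, stage and subset. The genotypes are a conditional knockout of Irf8 (cKO), a transcription factor of the monocyte lineage, and wild type (WT). The labels name no Cre driver, describe no allele and give no age, and state that both sexes were used. Osteoclast (OC) libraries came from sorted cells cultured for 4 days with MCSF at 20 ng/ml and RANKL at 40 ng/ml, and BMM libraries are labelled as day 0 in MCSF. The subsets are negative (Ly6Cneg), intermediate (Ly6Cint) and high (Ly6Chi) for Ly6C. There were 3 libraries a group, except WT OC Ly6Cneg and WT BMM Ly6Cneg with 2 each, 34 in all.

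A dividing cell copies its genome in S phase. In the phase before it, Cdc6 and Cdt1 load the ring of Mcm2 to Mcm7 onto origins of replication. Cyclin E and E2F factors then drive entry into S phase, Cdc45 and the GINS complex turn the ring into an active helicase, and polymerases held by the Pcna clamp copy each strand. In bone marrow, monocyte and granulocyte precursors divide, mature monocytes largely do not, and osteoclasts form by fusion of precursors that leave the cell cycle.

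E2F factors act through promoter sites of many replication genes, so the promoters that hold words of the E2F motif are shown here. The RefSeq promoter table (GRCm38.p6, the patch release of mm10) matched 30 of the 35 genes, and Mcm4, Gins1, Gins2, Pole and Ccne2 were not matched. The words TTTCCCGC, TTTCGCGC, TTTGCCGC and TTTGGCGC were searched on both strands in the 250 bases before each start site. At least 1 word lay in 7 of 30 members (23.3%), in 14 of 60 other replication and cell cycle genes (23.3%), in 1 of 13 mitotic genes (7.69%) and in 583 of all 27025 genes with a promoter (2.16%). CCAAT, the box bound by NF-Y, was in 60% of members, 92.3% of mitotic genes and 37.5% of all. TTTGAA, the CHR word of many mitotic promoters, was in 16.7% of members, 46.2% of mitotic genes and 18.3% of all. None of these words contains another, though E2F words of opposite strands can overlap each other. A match is a description of letters and not a bound site. The stretches below are in transcript direction, with the E2F words in capitals, from mm10 chr11:98907993-98908072 (Cdc6, plus strand), chr8:75109336-75109415 (Mcm5, plus), chr1:128359725-128359835 (Mcm6, minus), chr5:138171989-138172068 (Mcm7, minus), chr8:95633479-95633558 (Gins3, plus), chrX:93632234-93632313 (Pola1, minus) and chr5:151651209-151651288 (Rfc3, minus). Mcm5 holds 2 overlapping words, and Mcm6 holds 2 overlapping words and 1 more nearer the start.
Cdc6: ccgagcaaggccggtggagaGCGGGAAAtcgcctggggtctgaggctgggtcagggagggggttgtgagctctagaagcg
Mcm5: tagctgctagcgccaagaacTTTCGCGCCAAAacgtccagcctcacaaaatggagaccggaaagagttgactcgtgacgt
Mcm6: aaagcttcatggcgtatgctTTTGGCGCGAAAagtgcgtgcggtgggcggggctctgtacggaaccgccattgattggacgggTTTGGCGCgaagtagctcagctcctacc
Mcm7: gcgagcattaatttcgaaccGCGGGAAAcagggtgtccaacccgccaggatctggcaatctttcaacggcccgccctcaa
Gins3: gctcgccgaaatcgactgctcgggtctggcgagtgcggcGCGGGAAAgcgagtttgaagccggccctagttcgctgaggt
Pola1: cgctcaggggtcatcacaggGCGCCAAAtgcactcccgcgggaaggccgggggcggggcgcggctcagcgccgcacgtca
Rfc3: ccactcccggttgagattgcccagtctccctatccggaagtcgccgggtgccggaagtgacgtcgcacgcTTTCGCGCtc

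Levels are given as normalised reads, which are the reads recovered from the deposited values divided by each library's relative depth. Libraries held 19453108 to 52000410 reads. Differences and their SE are on the deposited log2 scale and were tested with limma, with Benjamini-Hochberg adjustment over 38873 genes in each comparison and calls under 0.05. That scale is compressed at low counts, where a doubling at 100 reads moved a value by a median of 0.595 and a doubling at 3000 reads by 0.950. Folds are therefore ratios of mean normalised reads. An exact permutation test of 3 libraries against 3 cannot go below 0.1, so it was not used for calls. The labels do not say that replicates were separate animals, so each p-value reflects spread among libraries that may be technical.

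Some labels were not matched by the RNA or could not be checked with it. Irf8 was higher in the libraries labelled cKO in all 6 comparisons. For example, it averaged 18969 ± 1248 normalised reads in cKO BMM Ly6Chi and 12027 ± 433 in WT BMM Ly6Chi (SD, n = 3 each). Reads counted over the whole gene cannot show whether part of it was deleted, and the labels describe no allele. The genotype therefore rests on the labels alone. The Y-linked gene Ddx3y averaged 1386 to 1669 normalised reads in cKO groups and 2.99 to 11.7 in WT groups, while Xist averaged 4940 to 13002 in cKO groups and 17061 to 34534 in WT groups. Genotype and sex therefore cannot be told apart. Ly6c2, which encodes Ly6C, averaged 5001, 11908 and 821 normalised reads in WT BMM Ly6Cneg, Ly6Cint and Ly6Chi, so the libraries labelled WT BMM Ly6Chi had the least of the 3. In cKO BMM it averaged 3294, 22016 and 10382 in the same order, so Ly6Cint exceeded Ly6Chi there too. The BMM groups that share the Ly6Chi label thus differed widely between genotypes in this RNA. Ctsk, an osteoclast protease, averaged 24951 to 297590 normalised reads in the OC groups, lowest in WT OC Ly6Cneg, and 939 to 8729.9 in the BMM groups.

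The replication genes were high in all 3 cKO BMM groups and in WT BMM Ly6Cneg, and intermediate in the WT OC groups. They were low in WT BMM Ly6Cint and Ly6Chi and in cKO OC Ly6Cneg and Ly6Cint. The sum in cKO OC Ly6Chi lay between those of the low groups and those of WT OC. Sums over several genes are given in RPM, the reads of those genes scaled to a fixed library total. Summed over the 35 genes, cKO OC libraries had 898 ± 68.9, 989.9 ± 27.1 and 1527 ± 38.6 RPM in Ly6Cneg, Ly6Cint and Ly6Chi (SD, n = 3 each). The cKO BMM libraries had 4021 ± 180, 3839 ± 62.5 and 3827 ± 62.7 in the same order of subsets. In WT OC the sums were 2779 ± 11.9 (n = 2), 2128 ± 53.7 and 2010 ± 20.6, and in WT BMM they were 3416 ± 115 (n = 2), 961 ± 42.2 and 713 ± 47.6. The sums of the cKO BMM groups overlapped, and those of WT BMM Ly6Cneg lay above both other WT BMM groups. In bulk RNA, fewer dividing cells and less of these RNAs per cell cannot be told apart.

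**Figure D1:**
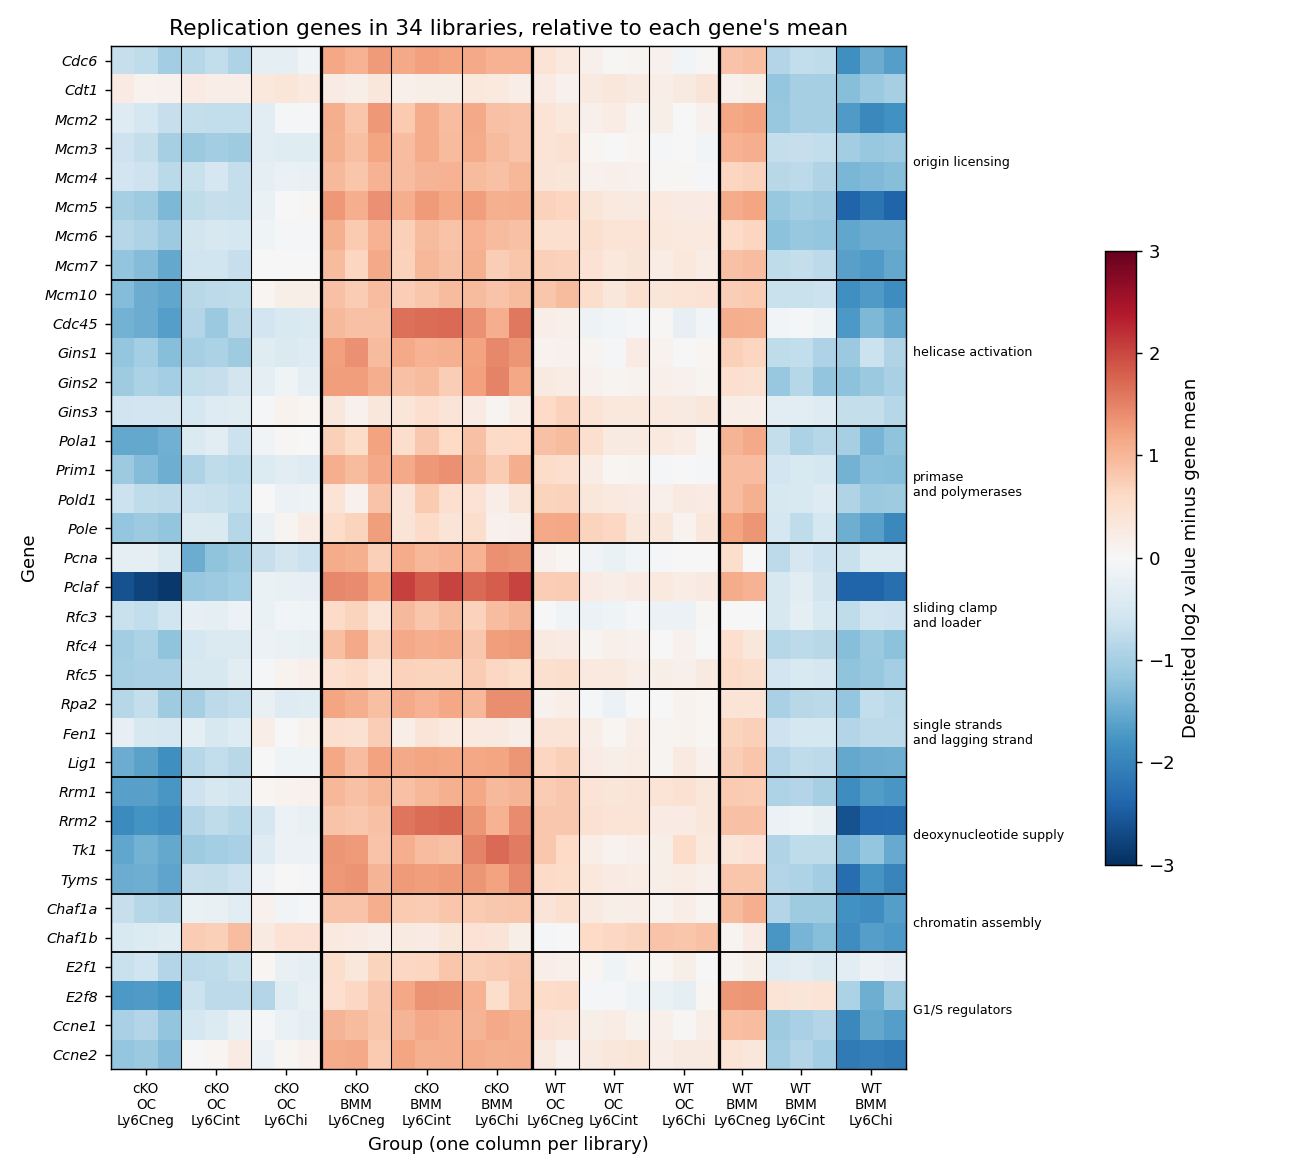
Deposited log2 value of each of the 35 replication genes (rows, by role) in each of the 34 libraries (columns, by group), relative to the gene's own mean; red is above and blue below it. The cKO BMM libraries are high for most genes and WT BMM Ly6Chi and cKO OC Ly6Cneg are low, while Cdt1 and Chaf1b depart from the pattern.

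Markers of other cell types also differed among the BMM groups, some in the order of the replication genes and some in another. Granule genes of granulocyte and monocyte precursors (Mpo, Elane, Prtn3, Ctsg and Ms4a3) summed to 697 to 1025, 2048 to 2346 and 159 to 792 RPM in cKO BMM Ly6Cneg, Ly6Cint and Ly6Chi. In WT BMM the ranges were 1184 to 1478, 37.0 to 47.3 and 8.83 to 11.2, in the same order of subsets here and below. Within cKO BMM Ly6Chi this sum spanned that wide range, and the sum of the replication genes spanned 3771 to 3895. Whether single replication genes followed the granule genes over these libraries was not tested. Progenitor markers (8 genes) summed to 86.7 to 98.3, 104 to 111 and 36.5 to 63.9 in cKO BMM and 168 to 184, 51.6 to 56.4 and 18.8 to 24.4 in WT BMM. Both lists were lower in WT BMM Ly6Cint and Ly6Chi than in WT BMM Ly6Cneg, as the replication genes were. Neutrophil markers (10 genes) summed to 1124 to 2730, 36320 to 39710 and 21670 to 39180 in cKO BMM and 937 to 1043, 14430 to 16030 and 2854 to 3613 in WT BMM. They were thus higher in cKO than in WT within Ly6Cint and Ly6Chi, but low in both Ly6Cneg groups, where the replication genes were high, and high in WT BMM Ly6Cint, where those were low. Monocyte and macrophage markers (9 genes) summed to 7883 to 8576, 11710 to 11970 and 10840 to 12830 in cKO BMM and 6953 to 7119, 17140 to 17940 and 17630 to 17870 in WT BMM, highest in the 2 groups with the lowest sums of replication genes at this stage. Dendritic cell markers (7 genes) summed to 23.4 to 33.8, 4.57 to 7.60 and 2.33 to 4.89 in cKO BMM and 81.0 to 97.05, 27.99 to 34.1 and 5.13 to 7.62 in WT BMM. Mast cell, basophil and eosinophil markers (7 genes) summed to 2.86 to 4.73, 2.94 to 4.51 and 0.649 to 1.64 in cKO BMM and 112 to 147, 0.913 to 1.56 and 0.2497 to 1.56 in WT BMM. Both were highest in WT BMM Ly6Cneg. Erythroid and megakaryocyte markers (5 genes) summed to 157 to 264, 129 to 157 and 316 to 617 in cKO BMM and 111 to 120.2, 66.1 to 89.0 and 408 to 671 in WT BMM, and the Ly6Chi ranges overlapped between genotypes. B and plasma cell, T and NK cell, and stromal and osteoblast markers reached at most 16.96, 13.2 and 61.9 in any BMM library. At this stage no gene of the granule, progenitor, neutrophil, monocyte, dendritic or erythroid lists was at 0 in any group, while Epx was at 0 in cKO BMM Ly6Cint and Ly6Chi and Fcer1a in WT BMM Ly6Cint. The part of these lists in the results below was not tested.

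In the Ly6Chi subset at the BMM stage all 35 genes were higher in cKO than in WT (background 14.4% of tested genes). The median difference was 2.32, against 0 for all genes, and the median fold was 7.16. Pclaf, a small protein that binds Pcna at replication forks, differed most. It had 7354, 7999 and 9233 normalised reads in cKO BMM Ly6Chi, against 291, 290.3 and 332 in WT BMM Ly6Chi (26.9-fold; 4.20 ± 0.08, SE, limma adjusted p = 2.44e-30). The lowest cKO library was far above the highest WT library.

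Among licensing genes the ring subunit Mcm5 had 8362, 7306 and 7442 normalised reads in cKO BMM Ly6Chi and 521, 629.8 and 514 in WT BMM Ly6Chi (13.9-fold; 3.46 ± 0.09, limma adjusted p = 3.66e-28). The loader Cdc6 was 13.4-fold higher and its partner Cdt1 only 2.87-fold higher. The other ring subunits were 4.57-fold (Mcm3) to 8.93-fold (Mcm2) higher. Although the ring holds its subunits in equal number, their RNA levels per kilobase of annotated exon were unequal. The length is the union of all annotated exons, 4666 bases for Mcm6 and 6956 for Mcm2, and single transcripts can be shorter. The size of the gap depends on that length. In cKO BMM Ly6Chi the level was 2097 normalised reads per kilobase for Mcm6 and 614 for Mcm2, and in WT BMM Ly6Chi it was 358 for Mcm6 and 68.8 for Mcm2.

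Among helicase activators Cdc45 had 1837, 1496 and 2152 normalised reads in cKO BMM Ly6Chi and 110.4, 168 and 136 in WT BMM Ly6Chi (13.2-fold; 2.87 ± 0.10, limma adjusted p = 9.84e-24). Mcm10, which acts with Cdc45 when origins fire, was 11.7-fold higher. The GINS subunits Gins1 and Gins2 were 7.15-fold and 7.89-fold higher, but Gins3 only 2.49-fold. Prim1, the catalytic subunit of primase, had 1183, 995 and 1281 normalised reads in cKO BMM Ly6Chi and 125, 149 and 146 in WT BMM Ly6Chi (8.23-fold). Pole, the leading-strand polymerase, was 6.95-fold higher, Pola1, which extends primers, 5.19-fold and Pold1, the lagging-strand polymerase, 2.94-fold.

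Lig1, the ligase that joins lagging-strand fragments, had 5383, 5442 and 6039 normalised reads in cKO BMM Ly6Chi and 696, 718 and 727 in WT BMM Ly6Chi (7.88-fold). The flap nuclease Fen1 was 2.96-fold higher and Rpa2, a single-strand binding subunit, 5.74-fold. The clamp Pcna had 23208, 28417 and 27696 normalised reads in cKO BMM Ly6Chi and 7204, 8678 and 8653 in WT BMM Ly6Chi (3.23-fold). The clamp loader subunits Rfc3, Rfc4 and Rfc5 were 3.70-fold, 9.47-fold and 4.57-fold higher. Pcna has 2 named pseudogenes and Tyms 1, with which counting could have split reads.

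The genes of deoxynucleotide supply had the largest median difference of the 8 roles, 3.14. Rrm2, the regulated subunit of ribonucleotide reductase, had 5379, 4373 and 5689 normalised reads in cKO BMM Ly6Chi and 212, 284 and 292 in WT BMM Ly6Chi (19.6-fold; 3.68 ± 0.09, limma adjusted p = 1.84e-28). Tyms, which makes thymidylate, was 21.8-fold higher, thymidine kinase Tk1 9.85-fold and Rrm1, the large reductase subunit, 7.74-fold. Chaf1a and Chaf1b, subunits of the factor that places histones on new DNA, were 8.74-fold and 6.73-fold higher. The cyclin E gene Ccne2 had 1710.2, 1646 and 1680.4 normalised reads in cKO BMM Ly6Chi and 84.3, 90.5 and 82.8 in WT BMM Ly6Chi (19.6-fold), and Ccne1 was 14.8-fold higher. E2f8, a repressor of its family, was 5.46-fold higher and the activator E2f1 2.10-fold.

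**Figure D2:**
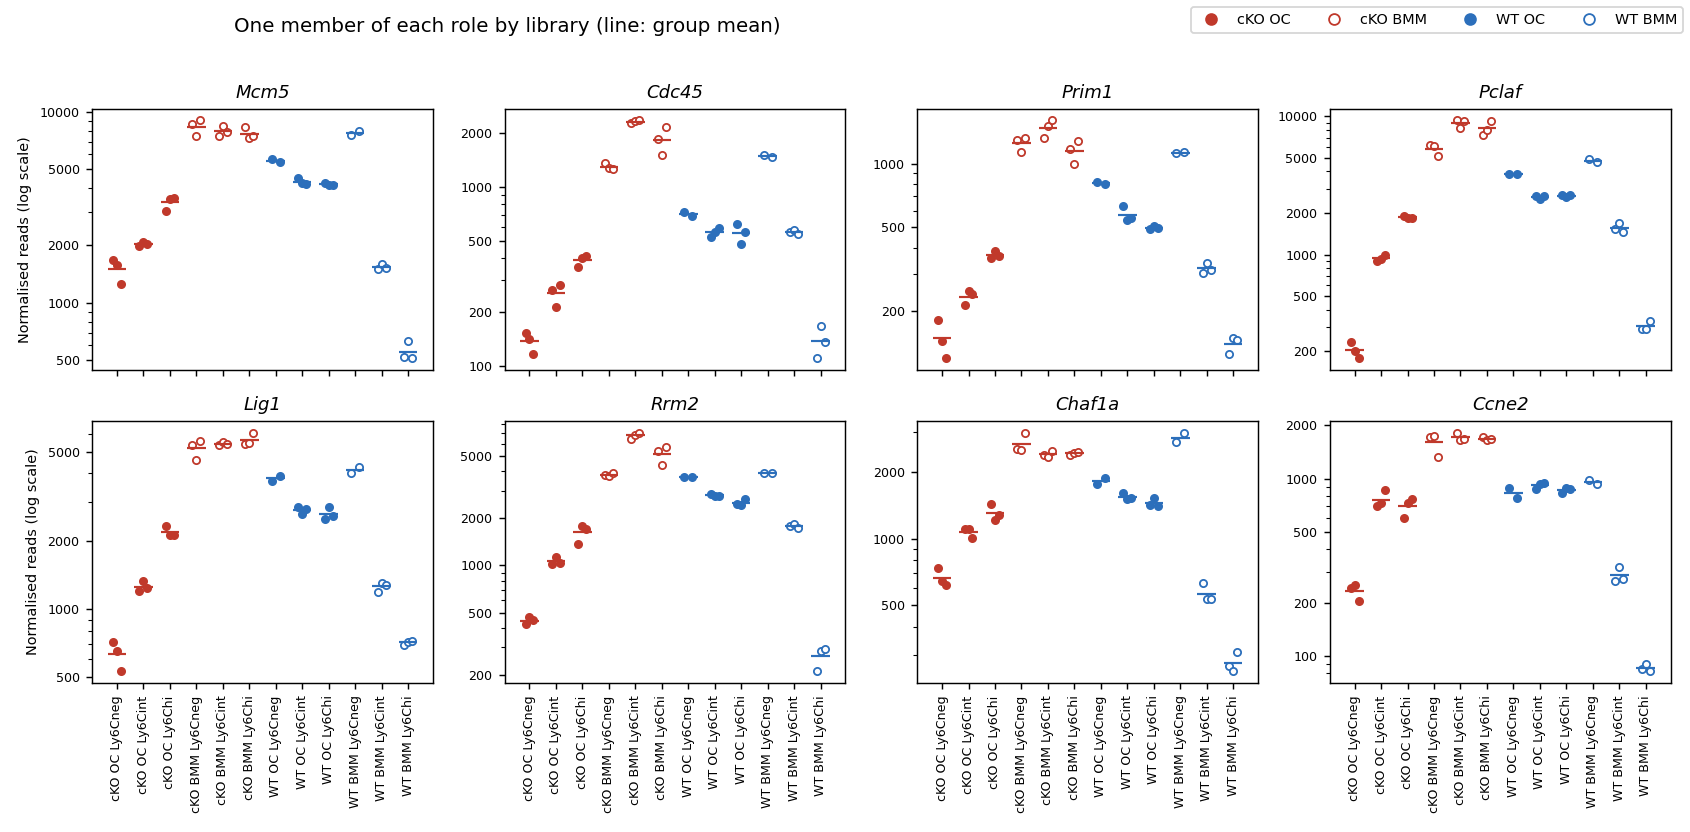
Normalised reads (log axis) of 8 replication genes, the one of each role with the largest difference between cKO and WT in BMM Ly6Chi; points are libraries and lines group means, with cKO in red and WT in blue. At the BMM stage cKO libraries are high in every subset, and WT libraries are high in Ly6Cneg and much lower in Ly6Cint and Ly6Chi.

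In the Ly6Cint subset at the BMM stage all 35 genes were also higher in cKO than in WT (background 25%). The median difference was 1.79, against 0.28 for all genes, and the folds ran from 1.98-fold for E2f8 to 6.79-fold for Tyms. Tyms had 1769, 1752 and 1798 normalised reads in cKO BMM Ly6Cint and 280, 267 and 237 in WT BMM Ly6Cint (2.23 ± 0.10, limma adjusted p = 5.74e-21). Pclaf was 5.73-fold, Mcm5 5.14-fold and Ccne2 6.01-fold higher. Gins3 and Fen1, at 0.77 and 0.85, differed least on the deposited scale.

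In the Ly6Cneg subset at the BMM stage the genotypes lay close together. In cKO 14 genes were higher (background 13.6%) and 2 lower (background 9.42%) than in WT. The lower genes were thus under the background share. The median difference of 0.11 was under that of all genes, 0.27. The median of all genes is itself sensitive to scaling and was 0.03 after quantile normalization. Tk1 had 4089.9, 3945 and 2927 normalised reads in cKO BMM Ly6Cneg and 2034 and 2160.4 in WT BMM Ly6Cneg (1.74-fold; 0.74 ± 0.12, limma adjusted p = 7.36e-06). Gins2 (1.76-fold), Pcna (1.60-fold) and Rpa2 (1.63-fold) were also higher. E2f8 was lower, with 1202, 1325 and 1521 normalised reads in cKO BMM Ly6Cneg and 2215 and 2287 in WT BMM Ly6Cneg (-0.67 ± 0.14, limma adjusted p = 0.00062), as was Pold1 (-0.54 ± 0.12). With each library centred on its median 6 genes were higher and 3 lower. Backgrounds were computed only for the fit as reported, so counts under this or any other setting stand without one.

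At the OC stage the direction was opposite. In cKO OC Ly6Cneg 34 genes were lower than in WT OC Ly6Cneg (background 7.52%), with a median difference of -1.40 against 0 for all genes. Pclaf had 234, 202 and 178 normalised reads in cKO OC Ly6Cneg, against 3806 and 3832 in WT OC Ly6Cneg (18.6-fold lower; -3.51 ± 0.09, limma adjusted p = 1.53e-26). Rrm2 had 421, 466 and 445 in cKO OC Ly6Cneg and 3686 and 3679 in WT OC Ly6Cneg (8.29-fold lower). Cdt1 was the gene not called, with 3315, 2996 and 3062 normalised reads in cKO OC Ly6Cneg and 3309.8 and 3091 in WT OC Ly6Cneg (-0.03 ± 0.08, limma adjusted p = 0.898), and its groups overlapped.

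By role, deoxynucleotide supply (-2.33) and the polymerases (-2.05) had the largest median differences in this comparison and chromatin assembly the smallest (-0.81). Pola1 had 185, 185 and 204 normalised reads in cKO OC Ly6Cneg and 1575 and 1661 in WT OC Ly6Cneg (8.47-fold lower). E2f8 was 8.23-fold, Pole 8.0-fold, Mcm10 7.92-fold, Lig1 6.04-fold and Mcm7 4.58-fold lower. Pcna (1.34-fold lower) and Chaf1b (1.38-fold lower) moved least among called genes.

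Other lists differed in the same libraries. Osteoclast markers (10 genes) summed to 15680 to 18440 RPM in cKO OC Ly6Cneg and 3577 to 3923 in WT OC Ly6Cneg. Stromal and osteoblast markers (7 genes) summed to 449 to 641 in cKO OC Ly6Cneg and 5.89 to 15.7 in WT OC Ly6Cneg, and immediate early and heat shock genes (10 genes) to 1929 to 1993 in cKO OC Ly6Cneg and 1098 to 1121 in WT OC Ly6Cneg. Neutrophil markers summed to 967 to 1277 in cKO OC Ly6Cneg and 176 to 225 in WT OC Ly6Cneg. These 4 lists were higher in cKO, as were erythroid and megakaryocyte markers, at 45.6 to 63.0 in cKO OC Ly6Cneg and 14.5 to 16.3 in WT OC Ly6Cneg, and monocyte and macrophage markers, at 11290 to 12010 in cKO OC Ly6Cneg and 9520 to 9543 in WT OC Ly6Cneg. Progenitor markers were lower in cKO, at 13.5 to 14.2 in cKO OC Ly6Cneg and 21.6 to 23.1 in WT OC Ly6Cneg, and so were dendritic cell markers, at 9.09 to 10.1 in cKO OC Ly6Cneg and 15.4 to 15.9 in WT OC Ly6Cneg. No gene of these 8 lists was at 0 in either group. Their part in the lower replication genes was not tested.

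In cKO OC Ly6Cint 31 genes were lower than in WT OC Ly6Cint (background 5.94%), with a median difference of -0.88 against 0. Rrm2 had 1021, 1139 and 1041 normalised reads in cKO OC Ly6Cint and 2874, 2772 and 2794 in WT OC Ly6Cint (2.64-fold lower; -1.26 ± 0.09, limma adjusted p = 5.68e-14). Mcm10 was 2.94-fold, Pclaf 2.77-fold and Tk1 2.60-fold lower. Cdt1, Rfc3, Chaf1b and Ccne2 were not called. Chaf1b had 1627, 1574 and 1856 normalised reads in cKO OC Ly6Cint and 1421, 1455 and 1503 in WT OC Ly6Cint (0.18 ± 0.09, limma adjusted p = 0.263). Neutrophil markers summed to 892 to 1119 RPM in cKO OC Ly6Cint and 75.7 to 90.2 in WT OC Ly6Cint. Osteoclast markers summed to 29930 to 30420 in cKO OC Ly6Cint and 21450 to 22680 in WT OC Ly6Cint, and precursor granule genes to 7.32 to 19.6 in cKO OC Ly6Cint and 1.07 to 1.73 in WT OC Ly6Cint. All 3 lists were higher in cKO, and their part was not tested.

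In cKO OC Ly6Chi 16 genes were lower than in WT OC Ly6Chi (background 3.61%), with a median difference of -0.27 against 0. Pcna had 7173, 7855 and 7421 normalised reads in cKO OC Ly6Chi and 11228, 11602 and 11291 in WT OC Ly6Chi (1.52-fold lower; -0.62 ± 0.11, limma adjusted p = 0.000171). Rrm2 (-0.59 ± 0.09), Tk1 (-0.58 ± 0.10) and Pclaf (-0.48 ± 0.08) came next. The count was 6 with median-centred libraries and 10 without WT OC Ly6Chi replicate 1, and Rrm2 and Tk1 lost the call when only the compared libraries were fitted. Osteoclast markers summed to 24990 to 26590 RPM in cKO OC Ly6Chi and 29350 to 29850 in WT OC Ly6Chi, and neutrophil markers to 84.0 to 148 in cKO OC Ly6Chi and 62.0 to 73.6 in WT OC Ly6Chi. Their part was not tested.

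**Figure D3:**
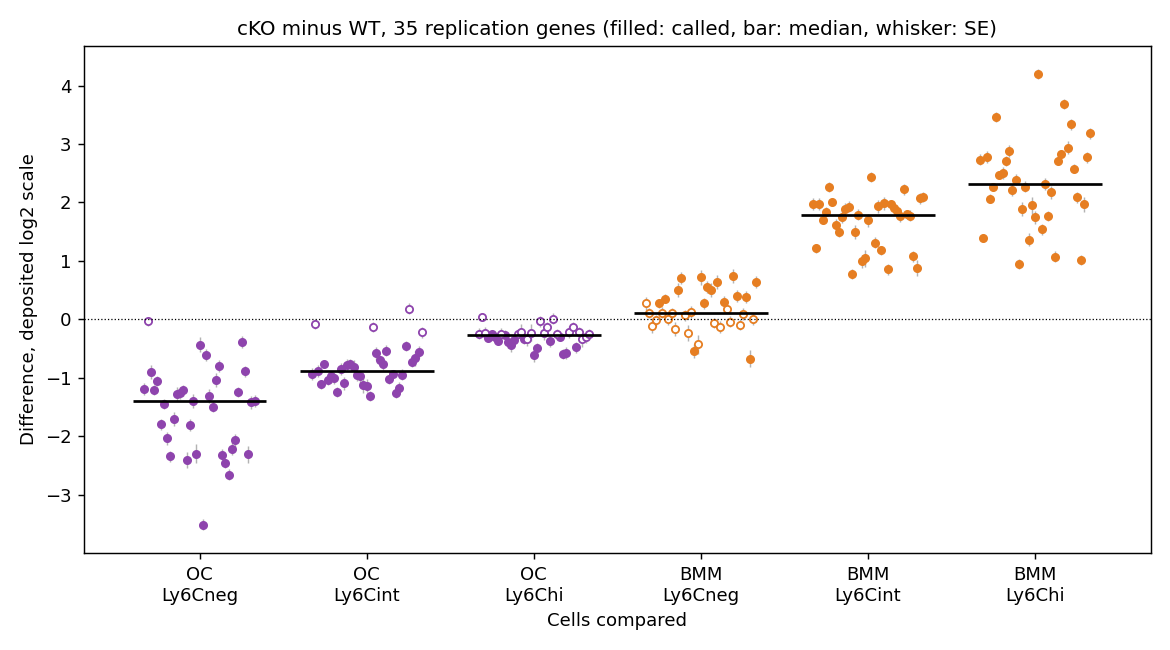
Difference between cKO and WT on the deposited log2 scale for each of the 35 replication genes, in the 3 subsets at the OC stage and then at the BMM stage; filled points were called and open points not, whiskers are SE and bars medians. The medians are negative in the OC comparisons and reach 2.32 in BMM Ly6Chi.

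The same libraries were then compared along the culture, so these values are not independent of those above. In cKO 34 genes were lower in OC than in BMM in Ly6Cneg (background 28%), 33 in Ly6Cint (background 32.3%) and 30 in Ly6Chi (background 26.3%). The medians were -1.97, -1.58 and -1.18, against -0.36, -0.34 and -0.27 for all genes. Chaf1b was the 1 gene higher in OC, in Ly6Cint (1.5-fold; background 16.4%).

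Pclaf had 234, 202 and 178 normalised reads in cKO OC Ly6Cneg and 6213, 6104 and 5150.3 in cKO BMM Ly6Cneg (28.4-fold lower; -4.10 ± 0.08, limma adjusted p = 3.29e-30). Tyms had 149, 156 and 135 in cKO OC Ly6Cneg and 1832, 1901 and 1473 in cKO BMM Ly6Cneg (11.8-fold lower). Cdc45 was 9.45-fold, 9.08-fold and 4.70-fold lower in OC in Ly6Cneg, Ly6Cint and Ly6Chi. Cdt1 was not called in any of the 3 subsets. In Ly6Chi the other genes not called were Gins3, Pole, Fen1 and Chaf1b.

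In WT the Ly6Chi libraries changed the other way. All 35 genes were higher in OC than in BMM (background 13.7%), with a median difference of 1.42 against -0.28 for all genes. Chaf1b had 1759, 1712 and 1768 normalised reads in WT OC Ly6Chi and 152, 190.4 and 179 in WT BMM Ly6Chi (10.1-fold; 2.61 ± 0.09, limma adjusted p = 8.51e-24). Rrm2 was 9.60-fold, Pclaf 8.79-fold, Mcm10 7.85-fold and Mcm5 7.54-fold higher. E2f1 (1.27-fold) and Pcna (1.39-fold) differed least.

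In WT Ly6Cint 33 genes were higher in OC than in BMM (background 13.1%) and E2f8 was lower (background 15.4%), with a median of 0.96 against -0.06. Mcm6 had 7049, 6754 and 6748 normalised reads in WT OC Ly6Cint and 2082, 2229.8 and 2186 in WT BMM Ly6Cint (3.16-fold). Chaf1b was 6.27-fold and Cdt1 2.76-fold higher. E2f8 had 769, 754 and 711 in WT OC Ly6Cint and 1126, 1068 and 1129 in WT BMM Ly6Cint (-0.48 ± 0.13, limma adjusted p = 0.00322). Cdc45 was not called (-0.01 ± 0.10).

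In WT Ly6Cneg 12 genes were lower in OC than in BMM (background 5.69%) and Gins3 was higher (background 6.55%), with a median of -0.20 against -0.03. Cdc45 had 723 and 687 normalised reads in WT OC Ly6Cneg and 1495 and 1460.2 in WT BMM Ly6Cneg (2.10-fold lower; -0.91 ± 0.13, limma adjusted p = 4.96e-07). Mcm2 (-0.81 ± 0.13) and E2f8 (-0.75 ± 0.16) came next. Gins3 had 687 and 739 in WT OC Ly6Cneg and 482 and 487 in WT BMM Ly6Cneg. With 2 libraries in each group, the error leans on the spread within all 12 groups.

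**Figure D4:**
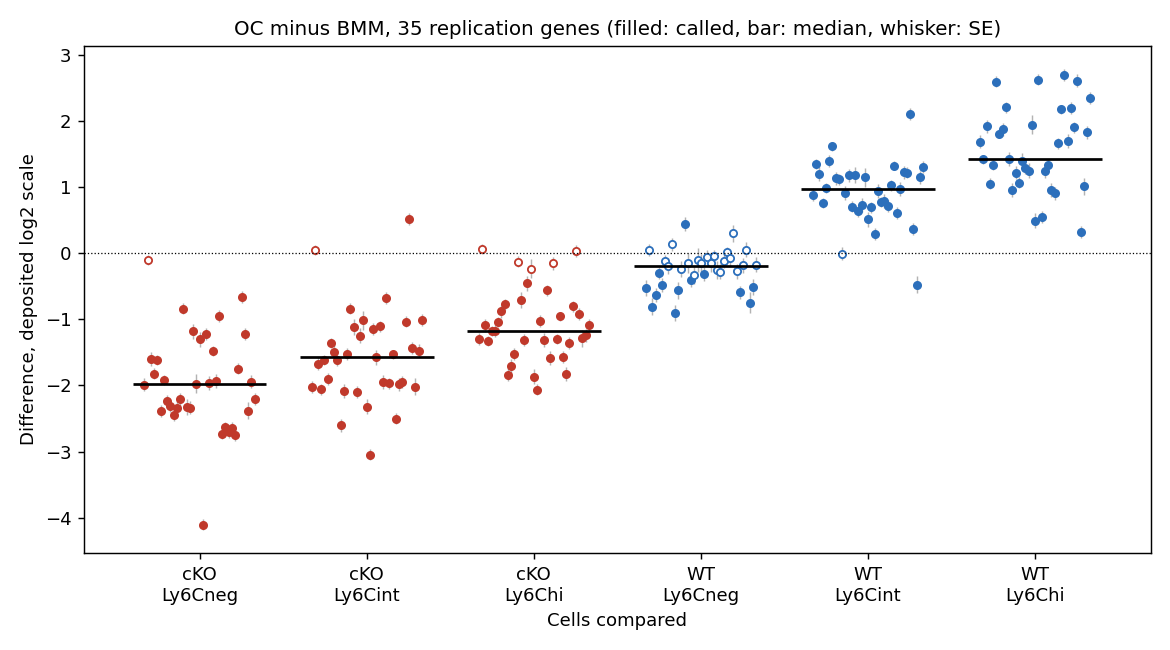
Difference between OC and BMM on the deposited log2 scale for each of the 35 replication genes by subset, in cKO and then in WT; filled points were called and open points not, whiskers are SE and bars medians. The cKO medians are all negative, while the WT medians are -0.20, 0.96 and 1.42 in Ly6Cneg, Ly6Cint and Ly6Chi.

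The difference between the genotypes in this change was itself tested. The OC minus BMM difference was lower in cKO than in WT for 34 genes in Ly6Cneg (background 8.71%), 35 in Ly6Cint (background 13.1%) and 35 in Ly6Chi (background 11.6%). The medians were -1.67, -2.63 and -2.66. On the deposited scale Pclaf had the largest value in each subset, -3.78 ± 0.13, -3.74 ± 0.12 and -4.68 ± 0.12 (limma adjusted p = 1.75e-22, 6.2e-24 and 5.8e-27). By limma-voom on the recovered reads, Gins1 and Pclaf both gave -4.02 in Ly6Cint. Cdt1 was not called in Ly6Cneg (-0.14 ± 0.12, limma adjusted p = 0.432) and was called in Ly6Cint (-1.30 ± 0.10) and Ly6Chi (-1.36 ± 0.10).

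Among WT BMM subsets the genes formed a steep order. All 35 were higher in Ly6Cneg than in Ly6Chi (background 10.6%), all 35 were higher in Ly6Cneg than in Ly6Cint (background 12.2%), and 28 were higher in Ly6Cint than in Ly6Chi (background 8.52%). The medians were 2.25, 1.5 and 0.61, against 0.02, 0.17 and -0.12 for all genes. Mcm5 had 7538 and 7918 normalised reads in WT BMM Ly6Cneg, 1499, 1606 and 1528 in Ly6Cint and 521, 629.8 and 514 in Ly6Chi, with no overlap. Rrm2 had 3902 and 3908 in Ly6Cneg, 1783, 1843 and 1723 in Ly6Cint and 212, 284 and 292 in Ly6Chi. E2f1 differed least between Ly6Cneg and Ly6Chi (1.33-fold). Cdt1, Gins1, Gins2, Pcna, Rpa2, Fen1 and E2f1 were not called between Ly6Cint and Ly6Chi. The precursor granule genes, the progenitor markers and the dendritic cell markers had the same order of these 3 groups, while neutrophil markers were highest in Ly6Cint and monocyte and macrophage markers lowest in Ly6Cneg. Their part was not tested.

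In cKO BMM few genes were called between subsets in the fit as reported. Between Ly6Cneg and Ly6Chi 2 genes were higher (background 18.8%) and 6 lower (background 8.22%) in Ly6Cneg. Between Ly6Cneg and Ly6Cint 2 were higher (background 17.4%) and 5 lower (background 10.1%) in Ly6Cneg. In both comparisons the genes higher in Ly6Cneg were under the background share. Between Ly6Cint and Ly6Chi 4 were higher (background 4.04%) and 2 lower (background 2.79%) in Ly6Cint. The medians were -0.086, -0.038 and 0.004 in this order, against 0.24, 0.17 and 0.06 for all genes. Rrm2 had 3806, 3730.3 and 3883 normalised reads in Ly6Cneg, 6455, 6854 and 7013 in Ly6Cint and 5379, 4373 and 5689 in Ly6Chi. Cdc45 had 1357, 1268 and 1263 in Ly6Cneg, 2261, 2317 and 2343 in Ly6Cint and 1837, 1496 and 2152 in Ly6Chi. For both, the Ly6Cneg libraries lay below all others. With median-centred libraries 0 genes were higher and 23 lower in Ly6Cneg than in Ly6Chi, so the counts depend on scaling. The backgrounds above do not apply to that scaling. With only the compared libraries fitted, 0 genes were called against Ly6Chi and 0 between Ly6Cint and Ly6Chi.

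The genotypes differed in the subset contrasts at the BMM stage. The Ly6Cneg minus Ly6Chi difference was lower in cKO than in WT for 35 genes (background 7.74%), the Ly6Cneg minus Ly6Cint difference for 35 (background 6.60%) and the Ly6Cint minus Ly6Chi difference for 23 (background 4.78%). Pclaf gave -3.92 ± 0.13, -2.16 ± 0.13 and -1.77 ± 0.12 in these tests, and E2f1 -0.63 ± 0.14, -0.69 ± 0.14 and 0.06 ± 0.13, the last not called.

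In cKO OC the order of subsets was opposite to that in WT BMM. In Ly6Cneg 33 genes were lower than in Ly6Chi (background 9.08%), with Cdt1 and Pcna not called, and a median of -0.86 against 0.17 for all genes. Between Ly6Cneg and Ly6Cint 23 genes were lower (background 10.7%) and 2 higher in Ly6Cneg (background 14%), the higher ones under the background share. Between Ly6Cint and Ly6Chi 27 were lower (background 2.39%) and Chaf1b higher in Ly6Cint (background 2.88%). With only the compared libraries fitted, 16 genes were called between Ly6Cint and Ly6Chi. Rrm1 had 1350.4, 1352 and 1243 normalised reads in Ly6Cneg, 2927, 3222 and 3069 in Ly6Cint and 4767, 4889.8 and 4993 in Ly6Chi, a rising order with no overlap. Pcna ran otherwise, with 9356, 9561 and 8569 in Ly6Cneg, 4113, 4967 and 5375 in Ly6Cint and 7173, 7855 and 7421 in Ly6Chi, and was, with Mcm3, higher in Ly6Cneg than in Ly6Cint (0.94 ± 0.11, limma adjusted p = 2.34e-08).

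In WT OC the subsets lay closer together than in WT BMM, with many genes somewhat higher in Ly6Cneg. In Ly6Cneg 21 genes were higher than in Ly6Chi (background 10.9%) and Chaf1b was lower (background 8.12%). Against Ly6Cint 16 were higher (background 8.11%) with Chaf1b lower (background 5.44%). The medians were 0.33 and 0.27, against 0.20 and 0.18 for all genes. Pole had 1318 and 1340.3 normalised reads in Ly6Cneg, 897, 876 and 689 in Ly6Cint and 690.1, 561 and 680.4 in Ly6Chi (2.06-fold higher in Ly6Cneg than in Ly6Chi). With median-centred libraries these counts were 1 higher and 2 lower against Ly6Chi, and 0 higher and 2 lower against Ly6Cint. The backgrounds given are for libraries that were not centred. With Ly6Cneg replicate 1 left out 8 genes were called against Ly6Cint, and likewise 8 with replicate 2 left out. The lone Ly6Cneg library is then assumed to vary like the other groups. Between Ly6Cint and Ly6Chi limma called 0 genes (background 2.90% in either direction), with 1, Chaf1b, at an unadjusted p under 0.05 and 0 called by limma-voom on the recovered reads.

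At the OC stage the genotypes also differed in the subset contrasts. The Ly6Cneg minus Ly6Chi difference was lower in cKO than in WT for 32 genes (background 5.36%), with Cdt1, Pcna and Chaf1b not called. The Ly6Cneg minus Ly6Cint difference was lower for 24 (background 4.08%) and higher for Pcna (0.70 ± 0.17, limma adjusted p = 0.00384; background 4.21%). The Ly6Cint minus Ly6Chi difference was lower for 24 (background 2.49%) and higher for Chaf1b (0.66 ± 0.13, limma adjusted p = 0.000776; background 2.79%).

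Most members shared one profile over the 12 group means, given here as a description. Pearson's r between a gene and the mean of the other 34 was 0.997 for Tyms, 0.991 for Lig1 and 0.989 for Mcm7, and lowest for Chaf1b (0.597), Cdt1 (0.619), Pcna (0.800), E2f8 (0.851) and E2f1 (0.869). WT BMM Ly6Chi was the lowest group of 25 genes, cKO OC Ly6Cneg of 8 and cKO OC Ly6Cint of 2. The highest group was cKO BMM Ly6Chi for 11 genes, cKO BMM Ly6Cint for 10, WT BMM Ly6Cneg for 8 and cKO BMM Ly6Cneg for 3. The ratio of the highest to the lowest group was 43.6 for Pclaf, 25.8 for Rrm2 and 21.8 for Tyms, and 2.99 for Cdt1.

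Cdt1 was nearly level in 10 groups and low in the other two. Its normalised reads were 2996 to 3688 in all libraries outside WT BMM Ly6Cint, with 1152, 1304 and 1309, and WT BMM Ly6Chi, with 1053, 1181 and 1313. Chaf1b was highest in WT OC Ly6Chi, while its partner Chaf1a was highest in WT BMM Ly6Cneg, with 2707 and 2981 normalised reads. In WT BMM Ly6Cint Chaf1b had 173, 249 and 277. E2f1 ranged over 1159 to 4189 normalised reads and E2f8 over 145 to 2301, both across all 34 libraries.

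**Figure D5:**
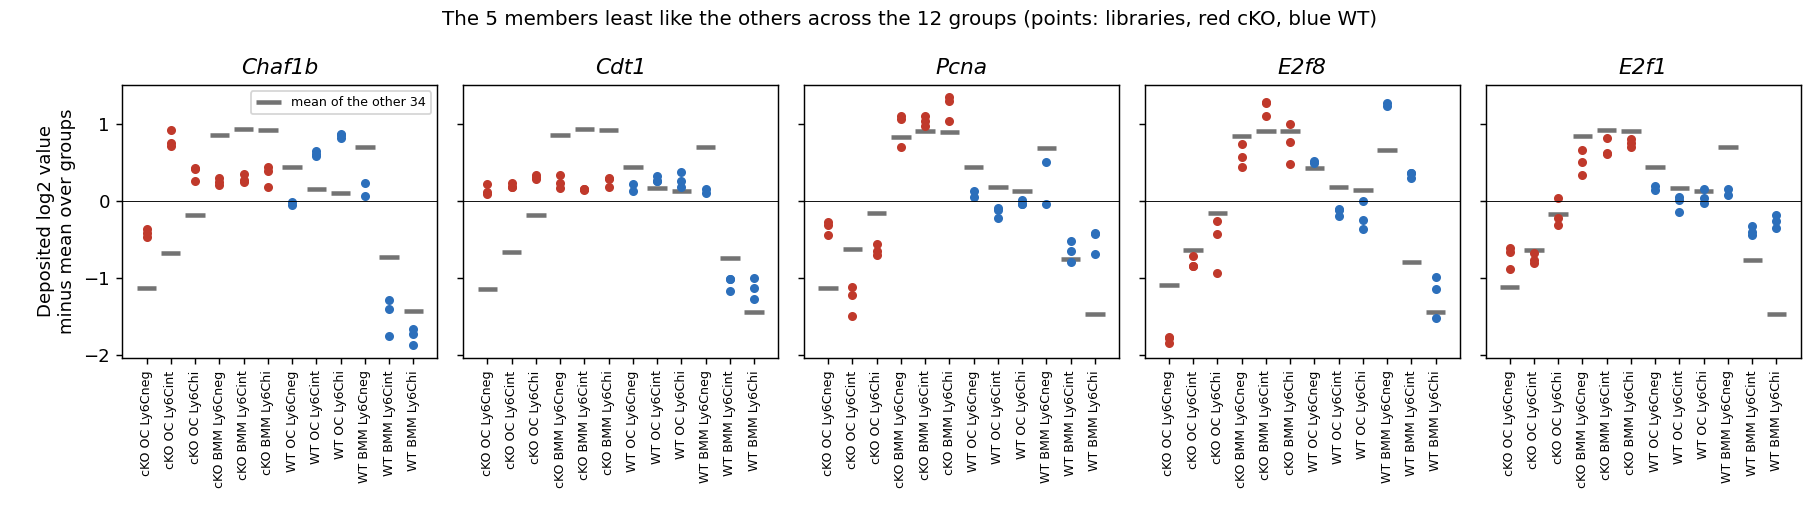
Deposited log2 value relative to the mean over groups for the 5 replication genes least like the others; points are libraries (cKO red, WT blue) and grey bars the mean of the other 34 genes. Cdt1 and Chaf1b stay above the bars in cKO OC and fall with them in WT BMM Ly6Cint and Ly6Chi.

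Outside the list, genes whose 12 group means were among the 10 most like the members' mean were Trip13 (r = 0.997), Fignl1, Bora, Anp32e, Cenph, Traip, Kpna2, Cks1b and Aurka (r = 0.987).

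Other genes of replication mostly moved with the members. In cKO against WT BMM Ly6Chi 15 of 17 other licensing and firing factors were higher (background 14.4%), led by Gmnn, the inhibitor of Cdt1 (2.23 ± 0.11), and the origin kinase Cdc7 (2.20 ± 0.10), while Orc3 and Orc5 were not called. Of 20 other polymerase and fork genes 19 were higher, led by the checkpoint adaptor Clspn (2.83 ± 0.11), and Pold4 was lower (background 15.3%). All 7 of 7 chromatin genes were higher, led by Uhrf1 (3.48 ± 0.13) and the histone chaperone Asf1b (2.90 ± 0.08). Of 8 other deoxynucleotide enzymes 4 were higher, led by Dut (2.85 ± 0.12), and 2 lower, Tk2 and Samhd1, which degrades deoxynucleotides (-1.29 ± 0.07).

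In cKO against WT OC Ly6Cneg 11 of 17, 17 of 20, 6 of 7 and 6 of 8 genes of those lists were lower (background 7.52%) and 0 were higher (limma; background 9.53%). Asf1b gave -2.48 ± 0.09, Clspn -2.39 ± 0.12 and the deoxycytidine kinase Dck -2.10 ± 0.11. Orc1 to Orc5, subunits of the origin recognition complex, were not called.

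Upstream regulators were mixed in the same comparison, with 6 of 17 E2F, cyclin and CDK genes higher (background 9.53%) and 8 lower (background 7.52%). The cyclin D genes Ccnd2 (2.62 ± 0.15) and Ccnd1 (1.31 ± 0.19) were higher, and the repressor E2f7 (-2.44 ± 0.14) was lower. Of 7 CDK inhibitor genes 2 were higher, led by Cdkn2b (1.15 ± 0.15), and 3 lower, led by Cdkn2c (-2.08 ± 0.09), against the same backgrounds. In cKO against WT BMM Ly6Chi Cdkn2c was higher (2.96 ± 0.08), as was Ccnd1 (2.76 ± 0.17).

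Mitotic genes (15), which act after S phase, were set beside the members. In cKO against WT BMM 15 of 15 were higher in Ly6Chi (background 14.4%) and 15 in Ly6Cint (background 25%), with medians of 3.40 and 1.92. In Ly6Cneg 5 were higher (background 13.6%) and 2 lower (background 9.42%), the lower ones near the background share. At the OC stage 15, 15 and 10 were lower in cKO in Ly6Cneg, Ly6Cint and Ly6Chi (backgrounds 7.52%, 5.94% and 3.61%), with medians of -3.47, -1.07 and -0.32. Topoisomerase gene Top2a gave -3.85 ± 0.12 in OC Ly6Cneg and 3.59 ± 0.11 in BMM Ly6Chi. The difference between the lists was not tested.

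For 15 members the annotation has a gene overlapping on the opposite strand, among them Mcm7, Cdc45, Pclaf, Lig1 and Tk1. Whether counting used strand is not given in the sources used here, so reads of such pairs cannot be told apart.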

How the data were processed

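RNA-seq of 34 libraries of sorted mouse monocytes and their osteoclast cultures was analysed, and 2 further WT Ly6Cneg samples of the labels were not analysed here. The authors deposited one table of normalised expression on a log2 scale for 38942 genes, and the transform is not given in the sources used here. Per the submitters' processing notes the build was mm10 and the tools included HISAT2, deepTools, DESeq2, bcl2fastq 2.17.1 and CASAVA 1.8.4, with no roles given. In each library the distinct low values formed a ladder of whole reads. Of the rungs checked, from rung 40 up to rung 2000, 100% lay within 0.1 of a whole number. The last rung checked lay at 2142 to 2251 reads, by library, and the share was not computed for larger counts. Reads and relative depth (0.573 to 1.416) were recovered from this ladder. Depth covers counting error only.

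Deposited log2 values were fitted with limma 3.58.1 in R 4.3.3 (12 group means, trended and robust prior, residual df 22). Genes above 4.784 in at least 3 libraries were tested (38873), in 33 comparisons, each with its own Benjamini-Hochberg adjustment. Sequences and motif words came from RefSeq promoters. Alternatives were filters, scalings, the libraries fitted, the prior, the scale of low values, each library left out and, added after seeing the data, limma-voom on recovered reads. The scripts were tested on simulated data. Named are the members with the largest differences, overall and by role, those not called, up to 4 called genes of each other list and genes among the 10 most alike; some genes that these rules name are not reported here. The members and lists were chosen with earlier results of these data known.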

Additional observations from a re-analysis of the deposited data

Results flagged for a closer look

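The change between OC and BMM differed between cKO and WT, by an interaction test across all genes in limma, for 34 of the 35 replication genes in Ly6Cneg (background 8.71% of tested genes in the same direction), for 35 in Ly6Cint (background 13.1%) and for 35 in Ly6Chi (background 11.6%). The differences between subsets also differed between cKO and WT at the BMM stage. This held for 35 genes between Ly6Cneg and Ly6Chi (background 7.74%), for 35 between Ly6Cneg and Ly6Cint (background 6.60%) and for 23 between Ly6Cint and Ly6Chi (background 4.78%). In all of these the difference was lower in cKO. At the OC stage 32 genes differed between Ly6Cneg and Ly6Chi, all lower in cKO (background 5.36%). Between Ly6Cneg and Ly6Cint 25 differed, 24 lower (background 4.08%) and Pcna higher (background 4.21%). Between Ly6Cint and Ly6Chi 25 differed, 24 lower (background 2.49%) and Chaf1b higher (background 2.79%). These tests share libraries with each other.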

How the results depend on the processing

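Shares over all genes were not computed for the alternatives. The counts of replication genes higher in cKO than in WT in BMM Ly6Cint and Ly6Chi were 35 under every alternative run. In cKO against WT BMM Ly6Cneg 16 genes were called, 9 with median-centred libraries, 8 with only the compared libraries, and 11 to 18 with each library left out. In cKO against WT OC Ly6Chi 16 were called, 6 with median-centred libraries and 10 to 14 with a library left out. There Rrm2 and Tk1 lost the call with only the compared libraries (limma adjusted p = 0.0513 and 0.0784).

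In cKO BMM, Ly6Cneg against Ly6Chi gave 8 calls, 23 with median-centred libraries, 0 with only the compared libraries and 5 to 11 with a library left out. The 5 came without cKO BMM Ly6Chi replicate 3 or Ly6Cneg replicate 3. Ly6Cneg against Ly6Cint gave 7, 12 with median-centred libraries, 15 after quantile normalization (10 higher and 5 lower) and 6 to 10 with a library left out. Ly6Cint against Ly6Chi gave 6, 3 with median-centred libraries, 0 with only the compared libraries, 3 without the trended or robust prior and 3 to 6 with a library left out. The 3 came without Ly6Chi replicate 2, Ly6Cint replicate 2 or Ly6Cint replicate 3. In cKO OC, Ly6Cint against Ly6Chi gave 28 calls and 16 with only the compared libraries.

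In WT OC, Ly6Cneg against Ly6Chi gave 22 calls and 3 with median-centred libraries, and Ly6Cneg against Ly6Cint gave 17, 2 with median-centred libraries and 8 to 14 with a library left out, 8 with either Ly6Cneg replicate left out in turn. Where this leaves 1 library in a WT Ly6Cneg group, that library is assumed to vary like the other groups. Ly6Cint against Ly6Chi gave 0, and 2 with only the compared libraries. The causes were not tested. The other 480 counts stayed within 1.5 times the reported ones. No paired analysis was possible because the numbers in the sample titles run serially and pair no libraries between groups.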
